A study of Mus musculus with 16 samples.

Results

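Msx1, Msx2, Msx3, Zic1, Zic2, Zic4, Zic5, Lmx1a and Gdf7 are genes of the dorsal neural tube, and all but Gdf7 encode transcription factors. The 9 genes were matched by Ensembl identifier among the 54838 identifiers of each count table, and all 9 passed the filter on low counts. They were measured by RNA sequencing in mouse embryos at E10.5, cut into a Head (the part above the third branchial arches) and a Tail (the part caudal to the forelimbs). There were 4 untreated genotypes: wild type (WT), the single knockouts Fuz KO and Gpr161 KO, and their double knockout Fuz;Gpr161 DKO (DKO below). Each of the 8 groups of region and genotype had 2 libraries, 16 in all. Fuz encodes a planar cell polarity effector needed to build cilia, and Gpr161 a receptor of the primary cilium that restrains Hedgehog signalling. Alleles, strain and the number of embryos pooled, if any, are not stated in the labels.

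The roof plate is the strip of cells along the dorsal midline of the neural tube. It secretes BMP and Wnt ligands that pattern the dorsal progenitors beside it, while Hedgehog from the floor plate patterns the ventral ones. Msx genes are homeobox genes commonly induced by BMP, and Msx1 and Msx2 are also expressed in limb buds and facial mesenchyme, whereas Msx3 is largely limited to the dorsal neural tube. Zic genes encode zinc finger proteins of the dorsal neural tube and somites, and lie in head-to-head pairs, Zic1 with Zic4 and Zic2 with Zic5. Lmx1a specifies the roof plate, and Gdf7 is a BMP ligand made there.

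Total counts per library ran from 39062489 to 53680317. Levels are given as CPM, the count scaled by the TMM-adjusted library total. A gene was called risen or fallen at a Benjamini-Hochberg adjusted p under 0.05 by edgeR's quasi-likelihood test over 21284 genes, and log2 fold changes are given with their standard error (SE). No label ties the libraries of a group to separate embryos, so a p-value here reflects only how these samples spread. The libraries of a group differed by more than counting noise (chi-square over its degrees of freedom from 10.2 to 181), and the 2 Gpr161 KO libraries of each region were of different sex. In whole parts of embryos, fewer cells of a type and less RNA per cell cannot be told apart. Fuz was at 1.29 ± 0.534 CPM (SD, n = 2) in Head Fuz KO against 7.32 ± 0.717 in Head WT, and Gpr161 at 4.26 ± 0.066 CPM in Head Gpr161 KO against 54.4 ± 0.713. In the Tail, Fuz was at 1.07 ± 0.27 CPM in Fuz KO against 5.26 ± 0.129 in WT, and Gpr161 at 4.53 ± 0.634 CPM in Gpr161 KO against 49.1 ± 3.3. The summed level of 7 head identity genes was 95.3 to 189 CPM in Head libraries and 7.18 to 23.1 in Tail libraries.

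Several other measures moved with genotype. The summed level of 16 hypoxia and glycolysis genes was 8380 to 8620 CPM in Head WT, 9650 to 29400 in Head Fuz KO, 11600 to 15800 in Head Gpr161 KO and 13000 to 21000 in Head DKO, with like ranges in the Tail. The summed level of 12 cardiomyocyte markers was 391 to 1930 CPM in Head Gpr161 KO against 5.36 to 9.17 in Head WT. Somite markers (8), of a tissue where Zic genes are also expressed, summed to 130 to 160 CPM in Head Gpr161 KO against 57.3 to 66.9 in Head WT. Neural crest markers (8) summed to 174 to 180 CPM in Tail Gpr161 KO against 257 to 259 in Tail WT, where 2 of them fell, Sox10 (log2 fold change -3.49 ± 0.34 SE, adjusted p = 0.000433 by edgeR) and Foxd3 (-1.98 ± 0.33 SE, adjusted p = 0.0236). By sex-linked genes the WT libraries were female, the Fuz KO and DKO libraries male and the Gpr161 KO libraries mixed, so sex and genotype cannot be told apart for Fuz KO and DKO. The part of these measures in the results was not tested, beyond the fits without libraries and with sex as a term that are given beside them. The sex term rests on the Gpr161 KO libraries alone, since no other group held both sexes. Their male and female libraries also differed in the median of the hypoxia and glycolysis genes. It was 1.38 and 0.69 in the Head and 1.05 and 0.3 in the Tail (log2 over WT). That fit therefore cannot separate sex from other differences between these libraries.

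Short stretches upstream of the Msx genes and of Zic1 are shown because they hold the matches of the motifs searched. The Zic1 stretch also holds a CCAAT match, at chr9:91365969-91365973, that is left in lower case. Further CCAAT matches of Msx1 and Zic1 lie outside the stretches and are not shown. The stretches come from RefSeq (GRCm38.p6), which holds a promoter entry for 8 of the 9 genes. Each is written 5′ to 3′ in the gene's direction, all 4 genes lie on the minus strand, and capitals mark the match.

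Msx1, chr5:37824647-37824701: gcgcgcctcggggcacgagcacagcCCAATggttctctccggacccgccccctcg
Msx2, chr13:53472875-53472929: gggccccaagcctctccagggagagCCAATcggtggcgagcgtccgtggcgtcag
Msx3, chr7:140049121-140049175: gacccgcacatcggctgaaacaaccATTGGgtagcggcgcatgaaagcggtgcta
Zic1, chr9:91365927-91365982: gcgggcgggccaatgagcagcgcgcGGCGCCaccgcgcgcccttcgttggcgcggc

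In the 250 bases before each start, both strands were searched for 6 motifs. The Gli motif GACCACCCA (in 0.225% of 32851 promoters of that length), its core CCACCCA (8.11%), the homeodomain motif TAATTG (7.17%) and the TCF motif CTTTGAT (3.21%) had no match in the 8 genes. CCAAT (33.8% of promoters) matched in Msx1, Msx2, Msx3 and Zic1, in Msx3 on the opposite strand, where it reads ATTGG. The Smad-type motif GGCGCC (9.59%) matched in Zic1. These matches describe letters in this window and were not tested as sites.

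In WT, all 9 genes were higher in both Head libraries than in either Tail library, though Gdf7 only by 1.95 against 1.94 CPM. The share of all genes separated in this way was not counted. Per kilobase of exon, the order of levels in Head WT was Msx1 at 50.4 CPM per kb, Zic1 at 30.2, Zic2 at 20.5, Msx2 at 11.5, Msx3 at 9.48, Zic5 at 6.51, Lmx1a at 5.41, Zic4 at 3.04 and Gdf7 at 2.24. In Tail WT the order was the same except that Msx3 (6.84 CPM per kb) stood above Msx2 (6.48). None of the 9 passed the test of Head WT against Tail WT, where 3.77% of all genes were called. At an unadjusted p under 0.05 there were 4, beside 2920 of all 21284 genes, and DESeq2 called 3. Lmx1a was nearest, at 21 and 15.8 CPM in the Head and 7.8 and 5.28 in the Tail (log2 difference 1.49 ± 0.38 SE, adjusted p = 0.051 by edgeR). With Head and Tail libraries of 1 genotype and number taken as a pair, 5 passed by edgeR, Lmx1a (0.000402), Zic2 (0.00433), Zic1 (0.00461), Msx2 (0.0157) and Zic5 (0.0378). No label gives that pairing, and the deviations of the paired libraries correlated least in WT (r = 0.133).

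**Figure D1:**
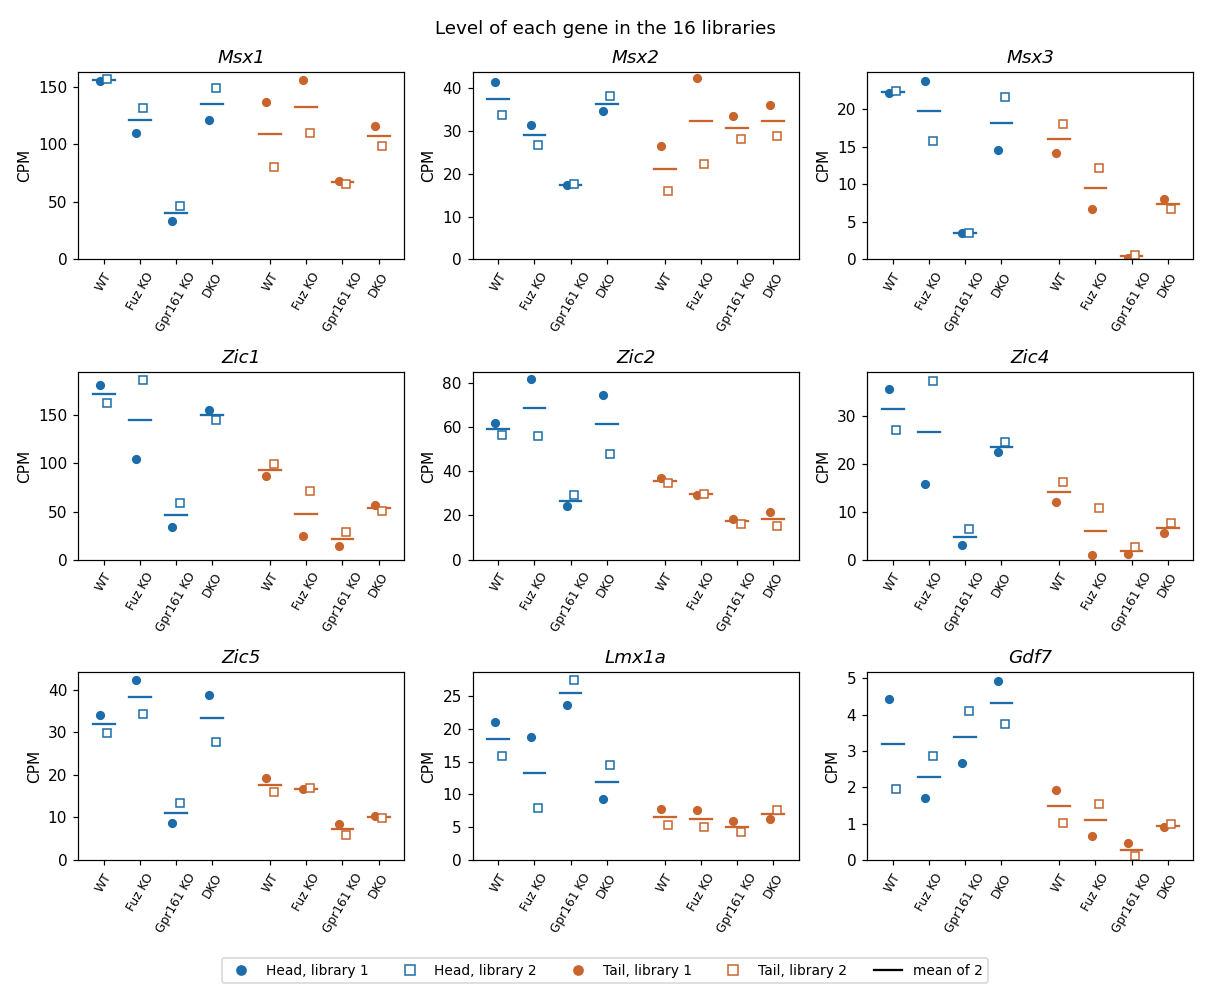
CPM of each gene (linear axes from 0) in the 8 groups of region and genotype, with library 1 as a filled circle, library 2 as an open square and the mean of the 2 as a line. In the 3 Msx and 4 Zic genes the Head Gpr161 KO libraries lie below every other Head library, while Lmx1a is highest there. The share of all genes that separate in this way was not counted.

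In Gpr161 KO, Msx1 fell in the Head, Msx3 fell in both regions, and Msx2 passed the edgeR test in neither. Msx1, a homeobox repressor of the dorsal midline and facial mesenchyme, had Head levels of 155 and 157 CPM (WT), 110 and 132 (Fuz KO), 33.5 and 46.8 (Gpr161 KO) and 121 and 149 (DKO). The Head Gpr161 KO libraries were the lowest and overlapped no other group, while Head DKO and Head Fuz KO overlapped. Msx1 fell in Head Gpr161 KO to 25.7% of the WT mean (log2 fold change -1.96 ± 0.25 SE, adjusted p = 0.00251 by edgeR). The Tail levels were 137 and 80.6 CPM (WT), 156 and 110 (Fuz KO), 68.5 and 65.8 (Gpr161 KO) and 116 and 98.6 (DKO). Both Tail Gpr161 KO libraries were below the rest, but the difference from Tail WT did not pass the test (-0.70 ± 0.24 SE, adjusted p = 0.463 by edgeR). The other Tail groups overlapped their neighbours in the order of means.

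Msx2, the homeobox gene closest to Msx1 in its expression sites, had Head levels of 41.5 and 33.7 CPM (WT), 31.3 and 26.7 (Fuz KO), 17.4 and 17.6 (Gpr161 KO) and 34.6 and 38.2 (DKO). Tail WT libraries read 26.6 and 15.9 CPM, Fuz KO libraries 42.5 and 22.2, Gpr161 KO libraries 33.5 and 28.1, and DKO libraries 36 and 28.9. The Head Gpr161 KO libraries were the lowest of their region, while both Tail Gpr161 KO libraries were above both Tail WT libraries. Neither difference passed the test (Head -1.11 ± 0.28 SE, adjusted p = 0.0713; Tail 0.54 ± 0.28 SE, adjusted p = 0.817, both by edgeR). Both Fuz KO 1 libraries had the highest hypoxia gene medians of their region (log2 over WT 2.63 and 2.38). Both DKO 1 libraries came next (2.37 and 1.8). Leaving out both Fuz KO 1 libraries gave -1.10 for the Head difference, and leaving out both DKO 1 libraries too gave -1.13. The Head difference passed in both of these fits, and DESeq2 gave an adjusted p of 0.00539.

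Msx3, the Msx gene of the dorsal neural tube, had Head levels of 22.2 and 22.4 CPM (WT), 23.8 and 15.8 (Fuz KO), 3.5 and 3.54 (Gpr161 KO) and 14.6 and 21.7 (DKO). The Tail levels were 14.2 and 18 CPM (WT), 6.78 and 12.2 (Fuz KO), 0.19 and 0.62 (Gpr161 KO) and 8.06 and 6.77 (DKO). The Gpr161 KO libraries were the lowest in both regions and overlapped no other group. Msx3 fell in Head Gpr161 KO to 15.7% of the WT mean (-2.67 ± 0.39 SE, adjusted p = 0.00442 by edgeR), and in Tail Gpr161 KO to 2.51%, 39.9-fold lower (-5.32 ± 0.47 SE, adjusted p = 0.000226). The Tail value rests on 8 and 24 counts against 594 and 789 in Tail WT. The Head call was lost without Head Gpr161 KO library 1 (adjusted p = 0.0522 by edgeR), and the Tail call held with each library left out in turn.

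The ratio of Msx1 to Msx3 counts was 361 and 106 in Tail Gpr161 KO, against 9.67 and 4.47 in Tail WT. The ratio of Msx1 to Msx2 counts was 1.93 and 2.67 in Head Gpr161 KO against 3.74 and 4.65 in Head WT, and 2.05 and 2.34 in Tail Gpr161 KO against 5.17 and 5.07 in Tail WT. The Gpr161 KO libraries stood outside the WT range in each of these ratios. The difference of the Gpr161 KO effect between Tail and Head was 1.26 ± 0.34 (log2, SE) for Msx1, 1.64 ± 0.40 for Msx2 and -2.66 ± 0.58 for Msx3. None passed the test (adjusted p = 0.307, 0.199 and 0.119 by edgeR). Of all genes, 0.094% were called in this comparison and none of the 9. At an unadjusted p under 0.05 there were 4, beside 1119 of all 21284 genes, and DESeq2 called 3. With the same pairing of Head and Tail libraries, Msx2 passed (1.67, adjusted p = 0.0176 by edgeR).

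All 4 Zic genes were lowest in Gpr161 KO in both regions by their means. Zic1, which acts in dorsal neural and somite development, had Head levels of 181 and 163 CPM (WT), 104 and 186 (Fuz KO), 33.5 and 58.7 (Gpr161 KO) and 155 and 145 (DKO). Tail WT libraries read 87.2 and 99.2 CPM, Fuz KO libraries 24.6 and 71.1, Gpr161 KO libraries 14.4 and 28.7, and DKO libraries 56.9 and 50.3. The Head Gpr161 KO libraries stood apart below all others, while in the Tail they overlapped the spread Fuz KO libraries. Against WT the log2 fold change was -1.90 ± 0.49 SE in the Head and -2.11 ± 0.50 SE in the Tail, and neither passed the test (adjusted p = 0.0952 and 0.191 by edgeR). DESeq2 called Zic1 in both regions (adjusted p = 0.000369 and 0.00017). Leaving out both Fuz KO 1 libraries gave -1.89 in the Head, and leaving out both DKO 1 libraries too gave -1.92. The Head difference passed in the first of these fits and not in the second.

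Zic4, the partner of Zic1, had Head levels of 35.8 and 27.2 CPM (WT), 15.9 and 37.4 (Fuz KO), 3.08 and 6.4 (Gpr161 KO) and 22.6 and 24.7 (DKO). The Tail levels were 12.1 and 16.3 CPM (WT), 1.06 and 10.9 (Fuz KO), 1.23 and 2.61 (Gpr161 KO) and 5.63 and 7.71 (DKO). Tail Fuz KO library 1 was as low as the Gpr161 KO libraries, and the other Fuz KO library was not. The level in Gpr161 KO was 15.1% of the WT mean in the Head and 13.5% in the Tail, and neither difference passed the test (-2.73 ± 0.84 SE and -2.89 ± 0.87 SE, adjusted p = 0.167 and 0.369 by edgeR). Without both Fuz KO 1 libraries Zic4 was called in both regions (log2 -2.73 and -2.89). With both DKO 1 libraries left out too it was called only in the Head (-2.75). DESeq2 called it in the Head (adjusted p = 0.0329). Zic1 and Zic4 share 60 exon bases on opposite strands in the annotation, and Zic4 shares 468 with the antisense model Gm37477, so reads there cannot be told apart without strand.

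Zic2, a dorsal midline gene needed for forebrain division and neural tube closure, had Head levels of 61.9 and 56.2 CPM (WT), 81.4 and 55.9 (Fuz KO), 24.4 and 29.1 (Gpr161 KO) and 74.4 and 47.9 (DKO). Tail WT libraries read 36.7 and 34.7 CPM, Fuz KO libraries 29.3 and 29.7, Gpr161 KO libraries 18.4 and 16.2, and DKO libraries 21.5 and 15.2. In the Head only Gpr161 KO stood apart from the other groups, while in the Tail the DKO and Gpr161 KO libraries overlapped at the low end. Zic2 fell in Head Gpr161 KO (-1.14 ± 0.23 SE, adjusted p = 0.0219 by edgeR), a call that was lost when any 1 of the 4 libraries was left out (adjusted p from 0.0721 to 0.21). The Tail difference, -1.05 ± 0.23 SE, did not pass the test (adjusted p = 0.104 by edgeR), but passed without both Fuz KO 1 libraries (0.0395) and by DESeq2 (0.00361).

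Zic5, the partner of Zic2, had Head levels of 34 and 29.7 CPM (WT), 42.2 and 34.2 (Fuz KO), 8.77 and 13.4 (Gpr161 KO) and 38.8 and 27.8 (DKO). The Tail levels were 19.2 and 15.9 CPM (WT), 16.7 and 16.8 (Fuz KO), 8.48 and 5.89 (Gpr161 KO) and 10.4 and 9.83 (DKO). Gpr161 KO was lowest in both regions without overlap, and Tail DKO lay between it and the other Tail groups. Zic5 fell in Gpr161 KO in the Head (-1.52 ± 0.24 SE, adjusted p = 0.00634 by edgeR) and in the Tail (-1.29 ± 0.24 SE, adjusted p = 0.0476). The Head call was lost without Head WT library 1 (adjusted p = 0.0817) or Head Gpr161 KO library 1 (0.075), and the Tail call without any 1 of its 4 libraries (0.12 to 0.384).

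**Figure D2:**
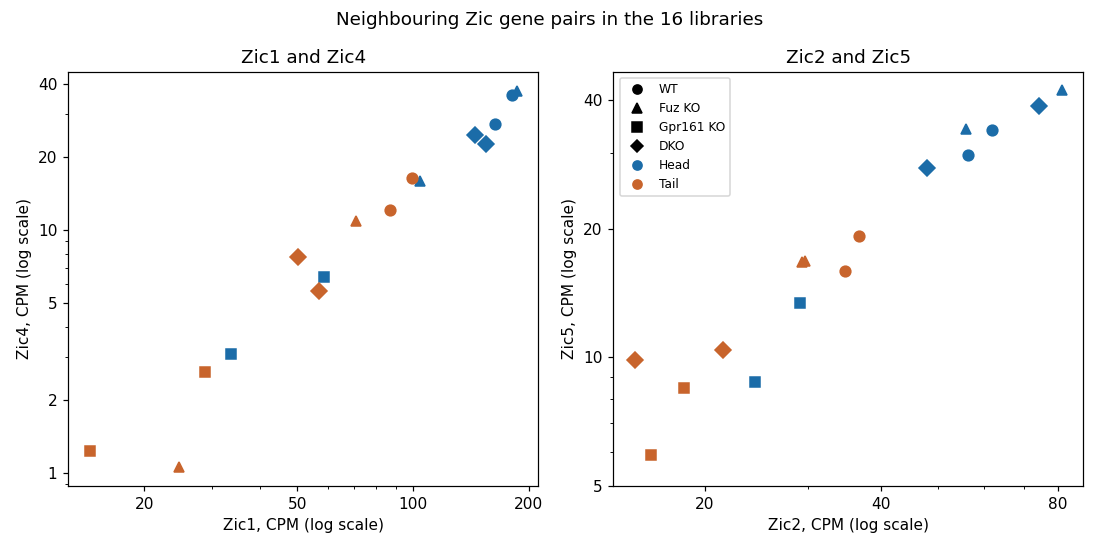
Zic4 against Zic1 (left) and Zic5 against Zic2 (right) in CPM on log axes, 1 point per library, with colour for region and shape for genotype. The genes of each pair are low and high in the same libraries, with the Head WT, Fuz KO and DKO libraries toward the high end, Gpr161 KO the lowest of each region by its mean, and Tail Fuz KO library 1 low in Zic4 for its Zic1.

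Within a region, the members of a pair varied together over the 16 libraries. With log2 CPM centred in each region, Pearson's r was 0.97 for Zic1 and Zic4 and 0.95 for Zic2 and Zic5, against 0.61 to 0.74 across the pairs. The libraries share groups, so these values describe the 16 libraries. The starts of Zic1 and Zic4 are 3204 bases apart (GRCm38.p6). The ratio of Zic1 to Zic4 counts was 5.05 and 6 in Head WT, 10.9 and 9.17 in Head Gpr161 KO, and 23.2 in Tail Fuz KO library 1 against 6.55 in library 2.

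In the main fit the 2 roof plate genes did not pass the edgeR test in any of the 14 comparisons, while DESeq2 called Lmx1a in 2 comparisons and Gdf7 in 1. Under other edgeR fits Lmx1a passed in Head WT against Tail WT, as with RLE scaling (adjusted p = 0.0467) or a replicate block (0.0313). With no filter on low counts both genes passed in some comparisons. Lmx1a had Head levels of 21 and 15.8 CPM (WT), 18.7 and 7.94 (Fuz KO), 23.6 and 27.4 (Gpr161 KO) and 9.25 and 14.5 (DKO). Head Gpr161 KO was highest without overlap, and the other Head groups overlapped except DKO and WT. The log2 difference of Head Gpr161 KO from WT was 0.47 ± 0.37 SE (adjusted p = 0.684 by edgeR). The DESeq2 calls of Lmx1a were higher in Head WT than in Tail WT (adjusted p = 0.00219) and lower in Head DKO than in Head Gpr161 KO (0.039). In the Tail, Lmx1a ranged from 4.23 to 7.8 CPM and the groups overlapped their neighbours. Lmx1a lies on chromosome 1, as does Gpr161.

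Gdf7 had Head levels of 4.44 and 1.95 CPM (WT), 1.71 and 2.85 (Fuz KO), 2.66 and 4.09 (Gpr161 KO) and 4.92 and 3.74 (DKO). The Head groups overlapped in the order of means. Tail WT libraries read 1.94 and 1.03 CPM, Fuz KO libraries 0.67 and 1.53, Gpr161 KO libraries 0.474 and 0.103, and DKO libraries 0.9 and 0.998. Tail Gpr161 KO was lowest, at 20 and 4 counts, and did not overlap the others. Its log2 difference from Tail WT was -2.33 ± 0.66 SE (adjusted p = 0.276 by edgeR, 0.0228 by DESeq2), against 0.08 ± 0.57 SE in the Head.

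Of the 9 genes, 4 fell in Head Gpr161 KO (Msx1, Msx3, Zic2 and Zic5) and none rose, where 2.02% of all genes were called, with a median log2 fold change of -1.52 against 0.01 over all genes. The count was 7 without both Fuz KO 1 libraries, 7 by DESeq2 and 3 with sex as a term. In Tail Gpr161 KO 2 fell (Msx3 and Zic5), where 0.305% of all genes were called, with a median of -1.29 against 0.00. There the count was 4 without both Fuz KO 1 libraries, 5 by DESeq2 and 1, Msx3, with sex as a term. Counts under other fits are given without the share of all genes that those fits called. The counts without both Fuz KO 1 libraries moved again with both DKO 1 libraries also left out. These comparisons share the WT libraries of a region with those of Fuz KO and DKO below. They also share their Gpr161 KO libraries with the comparison of DKO and Gpr161 KO.

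None of the 9 was called in Fuz KO or DKO against WT. The test also missed Fuz itself in Tail Fuz KO (log2 -2.30 ± 0.39 SE, adjusted p = 0.241), Head DKO (0.0942) and Tail DKO (0.13, all by edgeR). An absent call therefore does not show that a gene was unchanged. In Head Fuz KO 0 of 9 passed (0.047% of all genes), with 0 at an unadjusted p under 0.05 beside 1739 of all 21284 genes. In Tail Fuz KO 0 of 9 passed (0.0094%), again with 0, beside 1109. In Head DKO 0 of 9 passed (0.0329%), with 0 at an unadjusted p under 0.05 beside 922 of all genes. In Tail DKO 0 of 9 passed (0.0423%), with 4 at an unadjusted p under 0.05 beside 1530 of all genes. DESeq2 called 1 there and 0 in the other 3. The Tail DKO libraries of Msx3 (46% of the WT mean), Zic2 (51.3%) and Zic5 (57.7%) were all below both WT libraries (log2 -1.12 ± 0.37, -0.96 ± 0.23 and -0.79 ± 0.24 SE, adjusted p = 0.499, 0.304 and 0.434 by edgeR). The DESeq2 call was Zic2 (adjusted p = 0.0186). Msx2, the fourth gene at an unadjusted p under 0.05, went the other way, at 153% of the WT mean with both Tail DKO libraries above both WT libraries (0.61 ± 0.28 SE, adjusted p = 0.693 by edgeR). Tail DKO was also below both WT libraries in Zic1 (57.5%), Zic4 (47%) and Gdf7 (64%), at an unadjusted p above 0.05. Tail Fuz KO was below both in Msx3 (58.8%), Zic1 (51.3%), Zic2 (82.6%) and Zic4 (42%). Head DKO was below both in Msx1, Msx3, Zic1, Zic4 and Lmx1a. Head Fuz KO was below both in Msx1 and Msx2 and above both in Zic5. The share of all genes separated in this way was not counted. The difference between regions was not called for any of the 9 in DKO or Fuz KO (0% of all genes in each), and DESeq2 called 0 in both. At an unadjusted p under 0.05 there were 2 in DKO, beside 692 of all genes, and 1 in Fuz KO, beside 452.

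**Figure D3:**
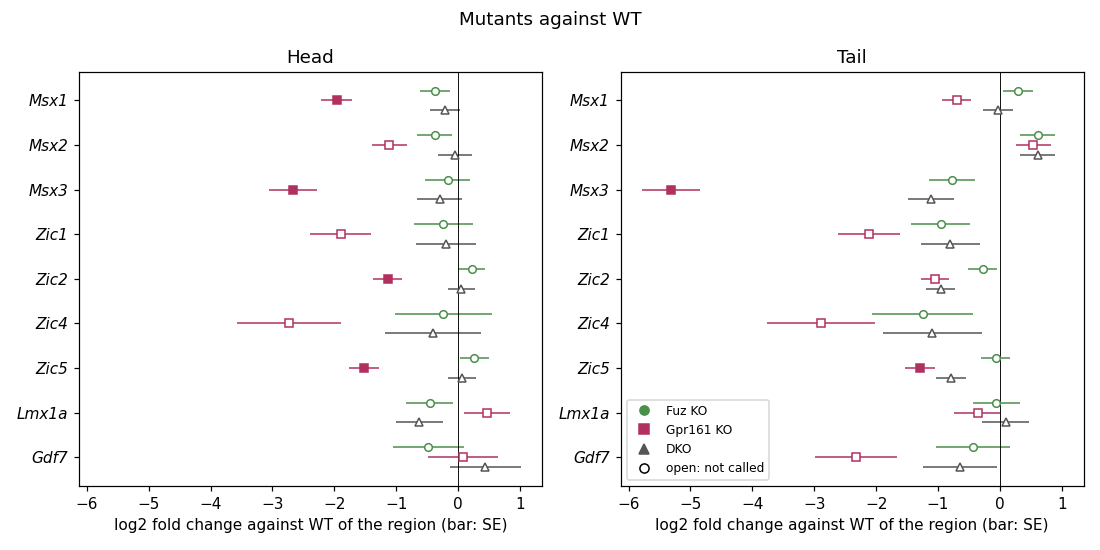
Log2 fold change of each gene in each mutant against WT of its region (edgeR), with bars of 1 SE and filled symbols for called genes. Filled symbols appear for Gpr161 KO at Msx1, Msx3, Zic2 and Zic5 in the Head and at Msx3 and Zic5 in the Tail.

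Comparing the DKO with the Gpr161 KO asks what loss of Fuz changes where Gpr161 is already lost. It uses the same Gpr161 KO libraries as the comparison with WT. A low reading in those libraries would both lower a gene against WT and raise it here, so the calls below are not independent of those above. In the Head, 4 of 9 genes rose (Msx1, Msx3, Zic2 and Zic5) where 4.16% of all genes were called, with a median of 1.58 against 0.01. Msx1 rose by 1.75 ± 0.25 (log2, SE, adjusted p = 0.00237 by edgeR), Msx3 by 2.37 ± 0.39 (0.00495), Zic5 by 1.58 ± 0.24 (0.00318) and Zic2 by 1.19 ± 0.23 (0.011). The Zic2 call was lost without Head Gpr161 KO library 1 (0.107) or Head DKO library 1 (0.121). Msx2, Zic1 and Zic4 were higher in both DKO libraries without passing, and Lmx1a was lower in both (-1.10 ± 0.38 SE, adjusted p = 0.132). Without both Fuz KO 1 libraries 7 rose and 1 fell, and by DESeq2 6 rose and 1 fell.

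In the Tail, 1 of 9 rose, Msx3 (4.20 ± 0.46 SE, adjusted p = 0.00127 by edgeR), where 0.522% of all genes were called, with a median of 0.67 against 0.03. All 9 log2 differences were positive, and 4 had an unadjusted p under 0.05 by edgeR, beside 2597 of all 21284 genes. Zic2 did not differ beyond its spread (0.08 ± 0.23 SE, adjusted p = 0.942), and Zic5 was at 0.49 ± 0.24 SE (adjusted p = 0.444). Msx2 was at 0.08 ± 0.28 SE. Both DKO libraries were above both Gpr161 KO libraries in Msx1 (0.67 ± 0.24 SE), Zic1 (1.32 ± 0.49), Zic4 (1.80 ± 0.85), Lmx1a (0.45 ± 0.38) and Gdf7 (1.69 ± 0.66), without passing. Msx3 was the only gene called. Without both Fuz KO 1 libraries the count was 2.

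Against Fuz KO, none of the 9 passed in Head DKO (0.0282% of all genes) or Tail DKO (0.0329%), and DESeq2 called 0 in both. At an unadjusted p under 0.05 there were 0 in the Head, beside 616 of all 21284 genes, and 2 in the Tail, beside 786. The 2 were Zic2 (-0.69 ± 0.23 SE) and Zic5 (-0.73 ± 0.24 SE), each with an adjusted p of 1 by edgeR. Both Tail DKO libraries were below both Tail Fuz KO libraries in these genes.

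**Figure D4:**
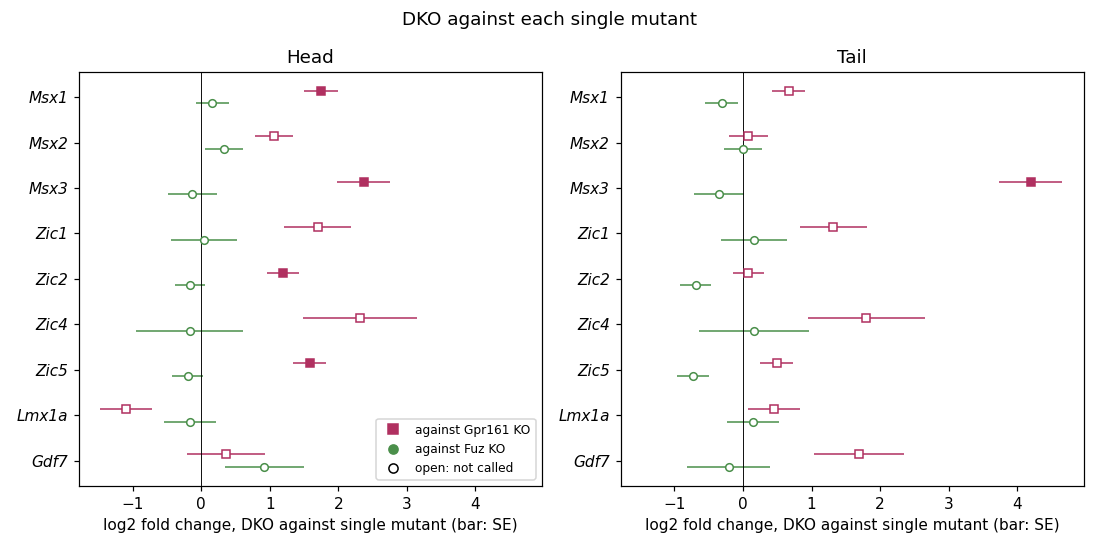
Log2 fold change of each gene in DKO against Gpr161 KO (squares) and against Fuz KO (circles), with bars of 1 SE and filled symbols for called genes. Against Gpr161 KO the filled genes are Msx1, Msx3, Zic2 and Zic5 in the Head and Msx3 in the Tail, and none is filled against Fuz KO.

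Other roof plate genes, a list of 12 ligands and regulators, were mixed. In Head Gpr161 KO 0 rose and 3 fell, with a median log2 fold change of -0.05 against 0.01 over all genes. Among them were the Wnt agonists Rspo1 (-2.11 ± 0.23 SE, adjusted p = 0.000628 by edgeR) and Rspo3 (-1.87 ± 0.28 SE, adjusted p = 0.00501). In Tail Gpr161 KO 0 rose and 1 fell, the axon guidance gene Draxin (-1.48 ± 0.27 SE, adjusted p = 0.0412), with a median of -0.65 against 0.00. Without both Fuz KO 1 libraries 4 fell in the Head and 3 in the Tail, and with sex as a term 3 and 0. In Head DKO against Gpr161 KO 3 rose, Rspo1 and Rspo3 among them, and 2 fell, the BMP ligands Bmp5 (-1.24 ± 0.32 SE, adjusted p = 0.0472) and Bmp7 (-0.83 ± 0.17 SE, adjusted p = 0.0176).

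Of 10 dorsal neural progenitor genes, 4 fell in Head Gpr161 KO (Pax3, Pax7, Atoh1 and Gsx2) and 4 in Tail Gpr161 KO (Pax3, Pax7, Olig3 and Atoh1), and none rose. With genes at 0 counts set to a bound of 3 counts over the group, which covers counting error only, the median log2 fold changes were -2.25 in the Head and -2.72 in the Tail, against fitted medians of -2.72 and -4.47. Without both Fuz KO 1 libraries 5 fell in the Head and 4 in the Tail, and with sex as a term 2 and 3. Pax7, a dorsal homeobox gene, was at 8.01 and 11.4 CPM in Tail WT and 0.0948 and 0.0516 in Tail Gpr161 KO. Atoh1, which marks the most dorsal interneuron progenitors, had 0 counts in both Tail Gpr161 KO libraries against 172 and 96 in Tail WT. In DKO against Gpr161 KO, 4 rose in the Head and 3 in the Tail. The summed level of 7 neural progenitor markers was 782 to 954 CPM in Head Gpr161 KO against 1060 to 1080 in Head WT, and 381 to 415 in Tail Gpr161 KO against 348 to 584 in Tail WT.

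BMP receptor and Smad genes (10) and BMP response and inhibitor genes (12) had 0 calls by edgeR in either direction in each of the 6 comparisons of a mutant with WT. In Head Gpr161 KO, DESeq2 and the fit without both Fuz KO 1 libraries each called 1 receptor or Smad gene and 2 response or inhibitor genes risen, and in Tail DKO each called 1 response or inhibitor gene risen. In Head Gpr161 KO their medians were 0.08 and 0.21, with 1 and 3 at an unadjusted p under 0.05 by edgeR, beside 2747 of all 21284 genes. The summed level of 11 craniofacial mesenchyme markers, tissue where Msx1 and Msx2 are also expressed, was 351 to 370 CPM in Head Gpr161 KO against 677 to 712 in Head WT, and 423 to 485 in Tail Gpr161 KO against 454 to 616 in Tail WT. Limb bud markers (7) summed to 304 to 338 CPM in Tail Gpr161 KO against 222 to 328 in Tail WT. The part of these tissues in the Msx values was not tested.

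The genes whose pattern over the 16 libraries was most like each member are given by Pearson's r of region-centred log2 CPM, as a description of libraries that share groups. For Msx1 they included Rspo1 (r = 0.91). They were for Msx2 Dlx4 (0.86), Tbx4 (0.86) and Grip1os3 (0.83), and for Msx3 Pax7 (0.97), Atoh1 (0.94) and Crabp2 (0.92). For Zic1 they were Sox8 (0.95), Lbx1 (0.94) and Lpar1 (0.94), and for Zic4 Lpar1, Lmo3 and D030045P18Rik (0.93 each). For Zic2 they were Axin2, Boc and Sox11 (0.91 each), and for Zic5 Psd2 (0.95), Gm37477 (0.94) and Boc (0.94). Lmx1a was nearest to Gm27030 (0.89), Siglece (0.88) and Creg1 (0.86), and Gdf7 to Gm48898 (0.88), Oas1c (0.86) and Samd15 (0.85), several of them under 1 CPM on average. Among the members, r was 0.72 for Msx1 and Msx2, 0.67 for Msx1 and Msx3 and 0.09 for Msx2 and Msx3, and between -0.38 and -0.06 for Lmx1a with the Msx and Zic genes.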

How the data were processed

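RNA was extracted from embryo parts with a Trizol-based kit and DNase, and poly-A selected NEBNext Ultra libraries were made, per the labels' protocols. The authors deposited a table of raw gene counts for each library, with no scaling. Per the submitters' processing notes, the tools were STAR 2.7.1a, featureCounts 1.6.0, HTSeq, StringTie 2.0.4, Picard 2.20.4, Trimmomatic and FastQC, with the build GRCm39. Which of the counters made the table, and whether it used strand, is not given in the sources used here. Exon lengths and overlaps came from GENCODE M21 and promoters from RefSeq GRCm38.p6, both of an older build. Of 54838 identifiers, 54723 matched a symbol.

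Counts were filtered with filterByExpr and fitted in 1 edgeR 4.0.16 model (R 4.3.3, TMM, robust quasi-likelihood F-test) over 16 libraries with a coefficient per group (8 residual degrees of freedom, common biological CV 0.257). There were 14 comparisons, with Benjamini-Hochberg adjustment over 21284 genes. Likeness used log2 CPM with a prior count of 2. Alternatives were RLE scaling, no filter, a filter of 5 CPM in 2 libraries, each region alone, a replicate block, DESeq2 1.42.0, leaving out libraries, and sex as a term. The fit was tested on simulated data. No label says that numbers pair samples. Deviations of same-numbered Head and Tail libraries of 1 genotype had r from 0.133 to 0.437 in 4 pairs. Pairs of different genotypes reached 0.302, so these values do not settle the pairing. A replicate block within genotype, added after seeing the data, is given beside results that span both regions where it changes a call. In the main fit same-numbered libraries of different genotypes are not treated as pairs. The replicate block over all genotypes does match them by number, though no label gives that match. Library totals ran from 39062489 to 53680317.

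The 9 genes and the lists were chosen with earlier results of these data known. Levels of all 9 are described in both regions. In several comparisons fold changes are given for some of the 9 only, chosen partly by their results. From other lists up to 4 called genes per comparison are named, by adjusted p. Wnt1 and Lmx1b, given at the end, were not called and are exceptions. Some genes that these rules name are not reported here.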

Additional observations from a re-analysis of the deposited data

How the results depend on the processing

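With 2 libraries a group, 1 library can decide a call. Counts of members under an alternative are given without the share of all genes that the same fit called. With no filter, adjusted p values were far smaller at nearly the same fold changes. Zic1 in Head Gpr161 KO against WT had log2 -1.92 with an adjusted p of 8.57e-29, against -1.90 and 0.0952 in the main fit (both by edgeR). Counts with no filter, and newly called values from that fit, are therefore to be read with caution. Over 126 gene comparisons and 1732 values under an alternative, 1512 kept their direction and side of the threshold, 18 were no longer called, 99 were newly called, 103 changed sign while called in neither fit, and no called value changed sign. Of the members, 4 were called in Head Gpr161 KO against WT, and 7 with no filter, 7 by DESeq2, 7 without both Fuz KO 1 libraries, and 1 to 3 with a library left out. In Tail Gpr161 KO 2 were called, and 7 with no filter, 1 with the filter of 5 CPM, 1 with the region alone, 5 by DESeq2, 4 without both Fuz KO 1 libraries, 1 with sex as a term, and 1 to 1 with a library left out. In Head DKO against Gpr161 KO 4 were called, and 8 with no filter, 7 with the region alone, 7 by DESeq2 and 8 without both Fuz KO 1 libraries. In Tail DKO against Gpr161 KO 1 was called, and 4 with no filter and 2 without both Fuz KO 1 libraries. From 0, the count became 2 with no filter in Tail Fuz KO, 5 with no filter, 1 by DESeq2 and 1 without both Fuz KO 1 and both DKO 1 libraries in Tail DKO, and 1 with no filter in the DKO difference between regions. In Head WT against Tail WT it became 1 with RLE scaling, 7 with no filter, 3 by DESeq2, 3 without both Fuz KO 1 libraries and 2 without both Fuz KO 1 and both DKO 1 libraries. In the Gpr161 KO difference between regions it became 4 with no filter, 3 by DESeq2, 2 without both Fuz KO 1 libraries and 1 without both Fuz KO 1 and both DKO 1 libraries. Fits without both Fuz KO 1 libraries hold 1 Fuz KO library per region, and their counts moved again with both DKO 1 libraries also left out. The cause was not tested.

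Over libraries of different genotypes, same-numbered pairs had r from -0.0787 to 0.302 (24 pairs), a range that overlaps the one within genotype. With a replicate block on the number over all genotypes the count was 4 in Head WT against Tail WT and 1 in the Gpr161 KO difference between regions. With the replicate block within genotype it was 5 and 1. The block over all genotypes also added Msx2 (adjusted p = 0.0154) and Zic1 (0.0397) in Head Gpr161 KO against WT, for a count of 6, Zic2 (0.0266) in Tail Gpr161 KO, for 3, and Msx2 (0.012) and Zic1 (0.0405) in Head DKO against Gpr161 KO, for 6, all by edgeR. Leaving out Fuz KO 1 or DKO 1 and adding sex were chosen with earlier results known.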

Other observations

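Wnt1, a roof plate ligand, averaged 8.98 ± 2.12 CPM (SD, n = 2) in Tail WT and 2.05 ± 0.557 in Tail Gpr161 KO, but 7.09 ± 0.473 in Head WT and 12.7 ± 0.335 in Head Gpr161 KO. Lmx1b, the paralogue of Lmx1a, was at 58.4 and 40.1 CPM in Tail WT and 7.25 and 17.6 in Tail Gpr161 KO, against 25.3 and 22.5 in Head WT and 30.1 and 32.8 in Head Gpr161 KO. In Tail Gpr161 KO against WT neither Wnt1 (adjusted p = 0.0746) nor Lmx1b (adjusted p = 0.116) passed the edgeR test. Neither passed in Head Gpr161 KO against WT or in the Gpr161 KO difference between regions. Both were named outside the rule for other lists. Of the 12 other roof plate genes, 6 had a positive and 6 a negative log2 fold change in Head Gpr161 KO. In Tail Gpr161 KO these were 4 and 8. In the Gpr161 KO difference between Tail and Head they were 5 and 7. There 1 of the 12 was called, where 0.094% of all genes were called. It was on the positive side, opposite to the direction of the Wnt1 and Lmx1b levels.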
